A study of Danio rerio with 10 samples.

Results

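The genes described here are the axon and cell guidance genes of 4 ligand and receptor systems, measured by RNA-seq in sorted pectoral fin cells of zebrafish embryos. They were chosen by gene symbol, as semaphorins, plexins, neuropilins, ephrins, Eph receptors, slits, robos, netrins and Unc5 receptors with at least 10 counts over all libraries. This gave 94 of the 32520 genes in the count table, and none was lost to the minimum of 10 counts. They comprise 12 class 3 semaphorins, 18 other semaphorins, 12 plexins, 4 neuropilins, 8 ephrins A, 5 ephrins B, 8 EphA and 7 EphB receptors, 4 slits, 5 robos, 5 netrins, 5 Unc5 receptors and *unc50*. *unc50* matched by spelling alone, since it encodes a Golgi protein and not a netrin receptor. *dcc* and the netrin G genes did not match by symbol. *robo2* and *plxnb2a* each stand for a pair of identifiers, and the values below are for *robo2* ENSDARG00000014891 and *plxnb2a* ENSDARG00000003811 unless stated.

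EGFP-positive cells had been sorted at 48 hpf from *Tg(Mmu:Prx1-EGFP)* embryos, with 2 WT libraries and 2 libraries from homozygotes for the m805 allele of *prdm1a*, named *prdm1a-/-* here. The WT strain was AB. The study leaves unclear whether the WT embryos were siblings from an intercross of *prdm1a* heterozygotes or came from separate transgenic WT fish. The study counted heterozygotes with WT in its fin measurements. The RNA-seq label is wildtype, and whether these pools held heterozygotes is not stated. The m805 allele truncates Prdm1a, a zinc finger transcription factor, by an early stop codon within its SET domain. EGFP was driven by a mouse *Prx1* enhancer, which also labels the pharyngeal arches and the dorsal head, so heads were cut off before sorting. The paper allows that some arch and dorsal head tissue may have remained. Each library came from pooled embryos, and mutants had been picked by their pigment phenotype.

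Semaphorins are secreted or membrane-bound ligands that are read by plexins, and most secreted class 3 members first bind a neuropilin. Ephrins are held on the cell surface, A types by a lipid anchor and B types by a transmembrane segment, and bind Eph receptor tyrosine kinases on the neighbouring cell. Slits are secreted ligands of Robo receptors. Netrins attract cells through Dcc and neogenin and repel them through Unc5 receptors. In the vertebrate limb bud these systems are known for steering motor axons and vessels into the bud and for keeping groups of mesenchymal cells apart.

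Library totals ranged from 20303621 to 26798799 counts, and guidance genes took 0.455% to 0.586% of them. In all, 3 of the 93 guidance genes tested were lower in *prdm1a-/-* cells and 0 were higher, at an adjusted p under 0.05 in edgeR's quasi-likelihood test blocked by replicate number. DESeq2 and limma-voom with the block also called 0 higher. The genes that fell were *sema3d*, *sema3fa* and *ntn1b*. *efna3a*, with 14 and 4 counts in WT and 4 and 8 in *prdm1a-/-* libraries, was too low to be tested. Among all 20007 genes tested, 1.01% were called, and 0.620% were called lower, beside 3.23% of the guidance genes. At an unadjusted p under 0.05 were 12 guidance genes with lower values (12.9%) and 3 with higher values (3.23%), 15 in all, where the shares of all genes were 6.05%, 6.40% and 12.4%. Without the block edgeR called 0 of all 20007 genes and so 0 guidance genes, with 3 at an unadjusted p under 0.05, and the adjusted p of each of the 3 called genes was 1.0. Leaving out any 1 of the 4 libraries, which allows no block, also gave 0 calls over all genes. Libraries that share a number deviated from their genotype means in a like way (r = 0.66 across all genes), but no label says that a number marks a shared day or batch.

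The *prdm1a-/-* levels did not overlap with WT and were lower for 20 guidance genes (21.5%, against 13.5% of all genes), and higher for 3 (3.23%, against 12.7%). Within each pair of libraries with the same number, *prdm1a-/-* was lower in both pairs for 38 guidance genes (40.9%, against 29.7% of all genes) and higher in both for 15 (16.1%, against 29.7%). The remaining genes had opposite signs, so that the pairs agreed in sign for 53 of 93 genes (57.0%), close to the 59.6% of all genes. The log2 ratios of the pairs had a Pearson r of -0.059 over the guidance genes, against 0.239 over all genes. That r includes *sema4gb* and *sema4aa*, whose ratios rest on few counts, and it was not computed without them. The median log2 fold change was -0.053 for guidance genes and 0.0068 for all genes. Here and below, CPM are counts scaled by TMM and library total, and log2 fold changes are *prdm1a-/-* over WT.

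Detection of markers does not check the fin label, since the markers of every list in the table were detected. All 10 fin mesenchyme markers were detected. Their summed levels were 799 and 644 CPM in WT and 778 and 467 CPM in *prdm1a-/-* libraries, and 1 of them, *hand2*, fell. Of the 10, 3 had lower values at an unadjusted p under 0.05 in edgeR, 5 were lower in both pairs and 1 was higher in both. In bulk RNA from sorted cells, fewer cells of a type and less RNA per cell cannot be told apart. All 10 neural crest and pigment cell markers were lower in *prdm1a-/-* in both pairs, 5 of them past the adjusted threshold (*sox10*, *tyrp1b*, *gch2*, *pnp4a* and *pmela*), with sums of 191 and 158 CPM in WT and 55.9 and 65 CPM in *prdm1a-/-* libraries. The 10 neuron markers summed to 205 and 264 CPM in WT and 183 and 119 CPM in *prdm1a-/-* libraries, and 2 of them, *elavl3* and *neurod1*, fell, with 5 of 10 lower in both pairs. Cartilage markers summed to 28028 and 1503 CPM in WT and 21193 and 729 CPM in *prdm1a-/-* libraries, and 1 of 10, *sox9b*, fell, while 8 of 10 had lower values at an unadjusted p under 0.05, 8 were lower in both pairs, limma-voom called 4 and DESeq2 3. The 10 endothelial markers summed to 320.2 and 355 CPM in WT and 309 and 330.1 CPM in *prdm1a-/-* libraries. The 10 epidermal markers summed to 14686 and 15249.6 CPM in WT and 16952 and 13578 CPM in *prdm1a-/-* libraries. EdgeR called 0 in either list, and 1 and 3 had higher values in *prdm1a-/-* at an unadjusted p under 0.05. DESeq2 and limma-voom each called 1 epidermal marker, *cdh1*, which was higher in *prdm1a-/-*. Skeletal muscle markers summed to 11986 and 1584 CPM in WT and 11147 and 3004 CPM in *prdm1a-/-* libraries. Of these 10, 0 were called by any of these tools, and 4 had higher values at an unadjusted p under 0.05 in edgeR. Macrophage markers summed to 47.9 and 29 CPM in WT and 43.7 and 33.6 CPM in *prdm1a-/-* libraries. Of these 8, 0 were called by any of the tools, and 1 had a lower value at an unadjusted p under 0.05 in edgeR. Red blood cell markers summed to 230.2 and 130.0 CPM in WT and 138 and 62 CPM in *prdm1a-/-* libraries, and 2 of 7, *hbae3* and *slc4a1a*, fell. No marker of any list was at 0 in all libraries. The part of these lists in the guidance results was not tested. *prdm1a* itself had 1147 and 5222 counts in WT and 2505 and 7847 in *prdm1a-/-* libraries, so its transcript was still counted and does not check the labels.

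Class 3 semaphorins, which are secreted, held 2 of the 3 genes that fell. *sema3d* had the highest mean CPM of the class and stood at 230.1 and 305 CPM in the first and second WT library and 123 and 181 CPM in the first and second *prdm1a-/-* library. The genotypes did not overlap, with a mean of 267 ± 52.8 CPM in WT and of 152 ± 41.4 CPM in *prdm1a-/-* (SD, n = 2). It fell, with a log2 fold change of -0.83 (SE 0.135, edgeR adjusted p = 0.0176), and was thus 1.77-fold higher in WT. Replicates 1 gave a log2 ratio of -0.91, and replicates 2 gave -0.75. *sema3d* was called in all 6 fits with the block, with adjusted p from 0.000619 to 0.0422.

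**Figure D1:**
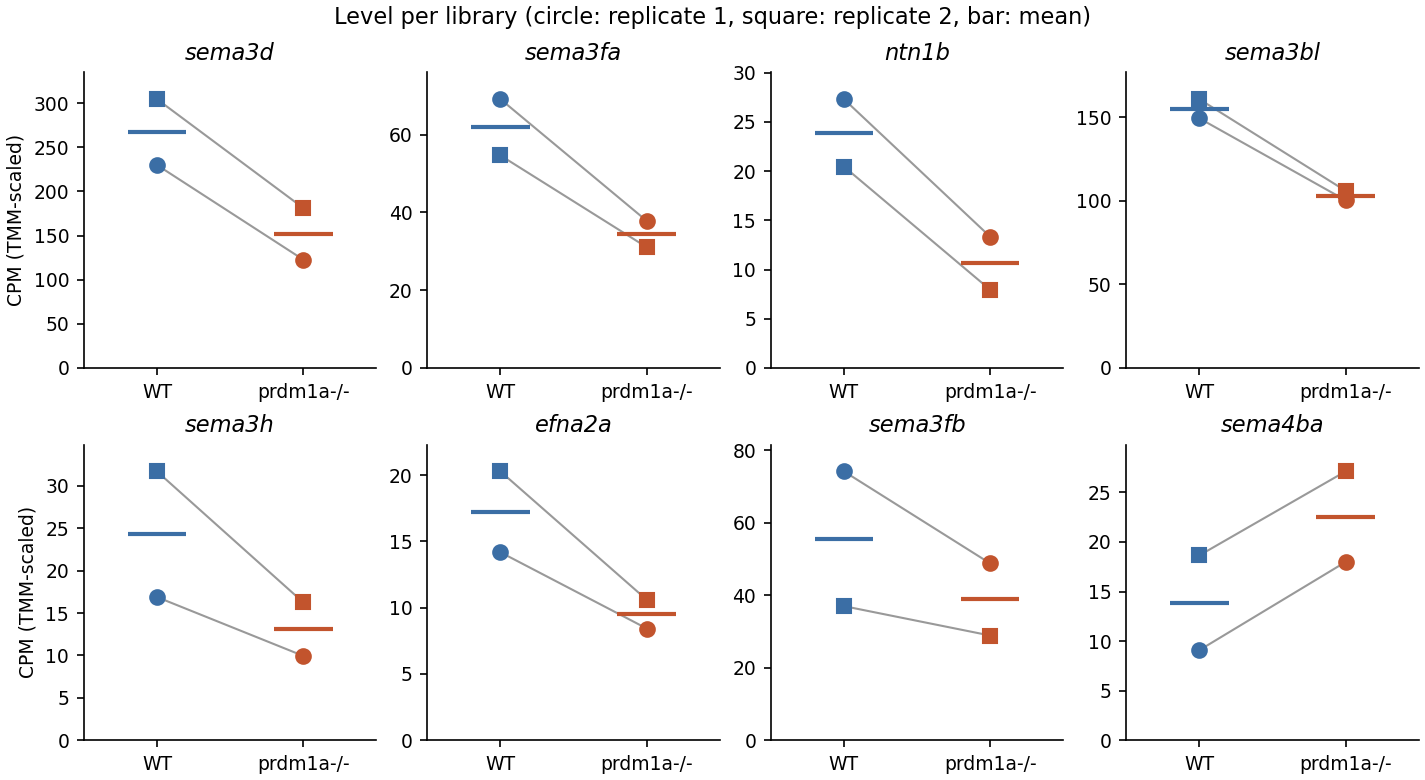
Level in CPM (y axis, from 0) of 8 guidance genes in each WT (blue) and *prdm1a-/-* (orange) library, with circles for replicates 1, squares for replicates 2, grey lines joining libraries of the same number and bars at the genotype means. Both grey lines slope down in the 7 panels from *sema3d* to *sema3fb* and up in that of *sema4ba*.

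*sema3fa*, one of the zebrafish counterparts of Sema3F, a ligand of neuropilin 2, stood at 69.2 and 54.7 CPM in the first and second WT library and 37.8 and 31.1 CPM in the first and second *prdm1a-/-* library. The genotypes did not overlap, with means of 61.9 ± 10.2 CPM in WT and 34.4 ± 4.79 CPM in *prdm1a-/-* (SD, n = 2). On the log2 scale the change was -0.84 (SE 0.145, edgeR adjusted p = 0.0245), and the pairs gave -0.87 and -0.82. With RLE size factors in place of TMM its adjusted p in edgeR was 0.0508, just outside the threshold. Its paralog *sema3fb* had 74.2 and 37 CPM in WT and 48.8 and 28.9 CPM in *prdm1a-/-* libraries. *sema3fb* was lower in *prdm1a-/-* within each pair, but WT replicate 2 lay below *prdm1a-/-* replicate 1, so the genotypes overlapped (log2 fold change -0.48, SE 0.15, adjusted p = 0.208 from edgeR).

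The secreted ligands *sema3bl* and *sema3h* also had lower values, without passing the adjusted threshold. *sema3bl* stood at 149 and 161 CPM in WT and 100.4 and 106 CPM in *prdm1a-/-* libraries, with no overlap (log2 fold change -0.59, SE 0.131, adjusted p = 0.0744 from edgeR). Its ratios were -0.57 and -0.60, nearly equal between the pairs. *sema3h* stood at 16.9 and 31.7 CPM in WT and 9.95 and 16.3 CPM in *prdm1a-/-* libraries (log2 fold change -0.87, SE 0.193, adjusted p = 0.076 from edgeR). Its libraries differed by replicate number as well as by genotype, and still did not overlap, by the narrow gap between WT replicate 1 and *prdm1a-/-* replicate 2. Limma-voom with the block called both, at adjusted p = 0.0264 and 0.0333. By that test 5 of 93 guidance genes were called (5.38%), against 2.17% of all genes. EdgeR with the block and no filter on low counts also called both, at adjusted p = 0.0208 and 0.0169. With at least 10 counts in every library edgeR called *sema3bl* (adjusted p = 0.0448) but not *sema3h*.

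The other 7 class 3 semaphorins had log2 fold changes from 0.0086 for *sema3ab* to 0.43 for *sema3ga*, and none passed the adjusted threshold. The class thus split into 5 genes with log2 fold changes from -0.87 to -0.48 and 7 at or above 0, and its median was 0.014. *sema3aa*, a counterpart of the neuropilin 1 ligand Sema3A that repels motor axons, had 143 and 121 CPM in WT and 165 and 135 CPM in *prdm1a-/-* libraries (log2 fold change 0.19, SE 0.13, adjusted p = 0.612 from edgeR). *sema3e*, whose protein binds plexin D1 without a neuropilin, had 126 and 66.7 CPM in WT and 163 and 78.2 CPM in *prdm1a-/-* libraries (log2 fold change 0.30, SE 0.132, adjusted p = 0.39 from edgeR). *sema3c*, chosen after its values were seen, had 9.16 and 8.59 CPM in WT and 12.9 and 10.6 CPM in *prdm1a-/-* libraries, and was the class member whose *prdm1a-/-* libraries both lay above WT (log2 fold change 0.39, SE 0.239, adjusted p = 0.556 from edgeR). Summed over the class, the level was 971 and 854 CPM in WT and 796 and 674 CPM in *prdm1a-/-* libraries. As a log2 ratio this was -0.29 for replicates 1 and -0.34 for replicates 2. *sema3d*, with the highest mean CPM, weighs most in these sums. The median log2 ratio of the class members was -0.32 in replicates 1 and 0.095 in replicates 2.

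In the RefSeq gene order of the GRCz12tu assembly, *sema3d* is separated by 1 protein-coding gene from *sema3ab*, which lies next to *sema3e*, and these genes had log2 fold changes of -0.83, 0.0086 and 0.30. *sema3bl* lies next to *sema3b*, at -0.59 and 0.16. *efna3b*, *efna1b*, *sema4aa* and *ephb6* are on chromosome 16, which holds *prdm1a*, with 105 to 808 protein-coding genes between them and it. Their log2 fold changes were 0.15, 0.10, 1.26 and 0.14, that of *sema4aa* (SE 0.817) resting on few counts, and none of the 3 called genes is on that chromosome. Of the 94 genes, 87 could be placed in that order, by Ensembl identifier where it gave one and otherwise by symbol.

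**Figure D2:**
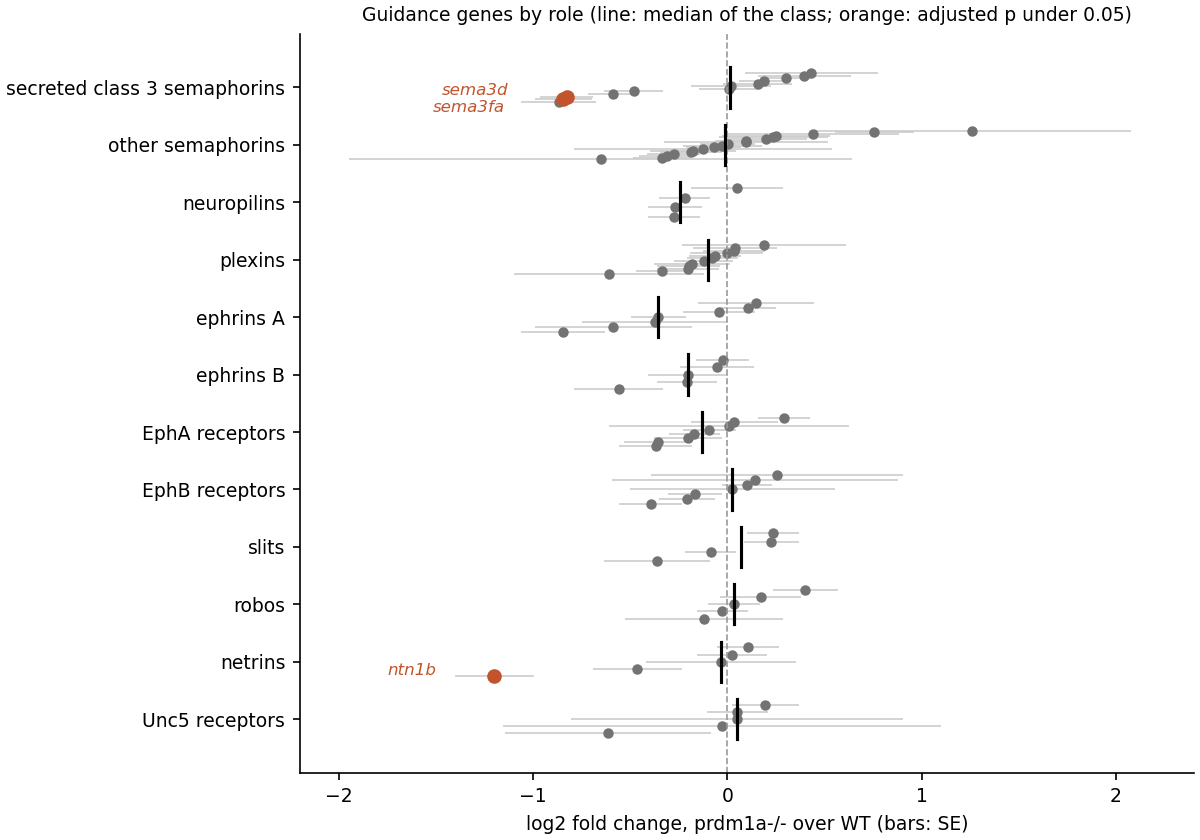
Log2 fold change (x axis, *prdm1a-/-* over WT, bars are the SE of edgeR with the block) of each tested guidance gene, in rows by role and without *unc50*, with a black line at the median of each class. The called genes (orange) are *sema3d* and *sema3fa* in the top row and *ntn1b* among the netrins, and the class medians lie between -0.35 for ephrins A and 0.070 for slits.

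The other semaphorins are mostly transmembrane proteins of classes 4 to 7, and 0 of 18 were called by edgeR, DESeq2 or limma-voom, with 1 lower and 1 higher at an unadjusted p under 0.05 in edgeR. *sema4ba* had the smallest p in the class and had 9.08 and 18.6 CPM in WT and 18 and 27.1 CPM in *prdm1a-/-* libraries (log2 fold change 0.76, SE 0.205, adjusted p = 0.141 from edgeR). It was higher in *prdm1a-/-* within each pair, by 0.98 and 0.54 on the log2 scale, but the genotypes overlapped. Its paralog *sema4bb* had 43.6 and 50.2 CPM in WT and 35.9 and 38.2 CPM in *prdm1a-/-* libraries, with no overlap and the other sign (log2 fold change -0.34, SE 0.15, adjusted p = 0.393 from edgeR). *sema5a*, whose protein carries thrombospondin repeats, had 80.8 and 78.6 CPM in WT and 72.3 and 57.2 CPM in *prdm1a-/-* libraries (log2 fold change -0.31, SE 0.144, adjusted p = 0.417 from edgeR). *sema6dl* had the highest mean CPM of the class, and its log2 fold change (0.0014, SE 0.143, edgeR adjusted p = 0.998) changed sign with the setting. *sema4gb* had 12 and 17 counts in WT and 0 and 40 in *prdm1a-/-* libraries, and *sema4aa* had 52 and 2 in WT and 54 and 23, too few for a usable ratio. For a library at 0, counting error allows up to 3 counts, which is 0.147 CPM in *prdm1a-/-* replicate 1.

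Among the semaphorin receptors, 0 of 4 neuropilins and 0 of 12 plexins were called by edgeR, DESeq2 or limma-voom, with 0 and 1 at an unadjusted p under 0.05 in edgeR. *nrp2a*, a receptor of Sema3F, was the neuropilin with the highest CPM, at 293 and 346 CPM in WT and 266 and 261 CPM in *prdm1a-/-* libraries (log2 fold change -0.27, SE 0.139, adjusted p = 0.469 from edgeR). *nrp1a* had 152 and 244 CPM in WT and 129 and 213 CPM in *prdm1a-/-* libraries (log2 fold change -0.22, SE 0.131, adjusted p = 0.55 from edgeR). *nrp2a*, *nrp1a* and *nrp2b* were lower in *prdm1a-/-* in both pairs, and the genotypes of *nrp1a* overlapped, since replicates 2 lay above replicates 1. *nrp1b* had a log2 fold change of 0.050 and opposite signs in the pairs (0.35 and -0.26). The neuropilins summed to 581 and 732 CPM in WT and 509 and 597 CPM in *prdm1a-/-* libraries, log2 ratios of -0.19 and -0.29.

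*plxnb1b*, a counterpart of the Sema4D receptor plexin B1, had 80.9 and 64.1 CPM in WT and 63.9 and 51.1 CPM in *prdm1a-/-* libraries, with both *prdm1a-/-* libraries below WT by a narrow gap between *prdm1a-/-* replicate 1 and WT replicate 2 (log2 fold change -0.33, SE 0.137, adjusted p = 0.358 from edgeR). *plxnb2a* had 123 and 137 CPM in WT and 121 and 125 CPM in *prdm1a-/-* libraries (log2 fold change -0.077, SE 0.131, adjusted p = 0.875 from edgeR). *plxna3*, a co-receptor of neuropilin 2, had 93.1 and 141 CPM in WT and 94.9 and 126 CPM in *prdm1a-/-* libraries (log2 fold change -0.065, SE 0.133, adjusted p = 0.903 from edgeR). For both, the genotype means lay closer together than the WT libraries did. The widest value in the class was that of *plxnc1*, the Sema7A receptor, chosen here after its values were seen. Its log2 fold change of -0.61 (SE 0.49) came from *prdm1a-/-* replicate 2 alone, with 4.54 and 4.76 CPM in WT and 5.68 and 1.54 CPM in *prdm1a-/-* libraries. *plxnd1*, the Sema3E receptor, had a log2 fold change of -0.0043 (SE 0.186), beside 0.30 for its ligand *sema3e*.

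Ephrins and neuropilins had the lowest class medians, -0.35 for the 7 ephrins A tested, -0.25 for the neuropilins and -0.20 for the 5 ephrins B. For the ephrins these lower values came mostly from replicates 2. Median log2 ratios in replicates 1 and 2 were -0.11 and -0.35 for ephrins A, and -0.076 and -0.30 for ephrins B. Replicates 2 were also the lower ones for EphA receptors (0.021 and -0.23), EphB receptors (0.14 and -0.32) and all guidance genes (-0.038 and -0.165). The summed levels gave log2 ratios of -0.032 and -0.27 for ephrins A, and -0.0016 and -0.21 for ephrins B. Of the ephrins A and B, 0 were called by edgeR, DESeq2 or limma-voom, with 2 and 1 at an unadjusted p under 0.05 in edgeR. *efna2a* had 14.2 and 20.3 CPM in WT and 8.43 and 10.6 CPM in *prdm1a-/-* libraries, with no overlap (log2 fold change -0.85, SE 0.217, adjusted p = 0.119 from edgeR). Its ratios were -0.75 and -0.94, and edgeR called it when no filter on low counts was applied (adjusted p = 0.0446). *efna5a*, a ligand of EphA receptors, had 58.5 and 58.6 CPM in WT and 45.8 and 45.8 CPM in *prdm1a-/-* libraries (log2 fold change -0.35, SE 0.141, adjusted p = 0.343 from edgeR). Both WT libraries of *efna5a* were nearly equal, as were both *prdm1a-/-* libraries. *efnb2b* had 13.6 and 13.9 CPM in WT and 9.95 and 8.75 CPM in *prdm1a-/-* libraries, also without overlap (log2 fold change -0.56, SE 0.229, adjusted p = 0.356 from edgeR).

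Its paralog *efnb2a*, a counterpart of the artery marker ephrin-B2, had 114 and 118 CPM in WT and 122 and 106 CPM in *prdm1a-/-* libraries (log2 fold change -0.024, SE 0.136, adjusted p = 0.972 from edgeR). *efnb3b* had 45.6 and 38.6 CPM in WT and 42.1 and 31.3 CPM in *prdm1a-/-* libraries (log2 fold change -0.21, SE 0.154, adjusted p = 0.648 from edgeR). All 5 ephrins B had log2 fold changes below 0, from -0.56 to -0.024. Of these 5, 4 were lower in both pairs, where the share was 40.9% of guidance genes and 29.7% of all genes. *efna1a* and *efna1b*, the ephrins A with the highest CPM, separated by replicate number, and their genotypes overlapped. *efna1a* had 25.3 and 98.1 CPM in WT and 31.9 and 74.5 CPM in *prdm1a-/-* libraries (log2 fold change -0.043, SE 0.183, adjusted p = 0.958 from edgeR), and *efna1b* had 35.2 and 129 CPM in WT and 43 and 123 CPM in *prdm1a-/-* libraries (log2 fold change 0.10, SE 0.146, adjusted p = 0.842 from edgeR).

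Of the Eph receptors, 0 of 8 EphA and 0 of 7 EphB genes were called by edgeR, DESeq2 or limma-voom, with 0 and 1 at an unadjusted p under 0.05 in edgeR. *ephb3a* had 38.3 and 33.2 CPM in WT and 29.1 and 25.3 CPM in *prdm1a-/-* libraries, without overlap and with ratios of -0.40 and -0.39 in the pairs (log2 fold change -0.40, SE 0.16, adjusted p = 0.353 from edgeR). *epha4a*, a counterpart of the EphA4 receptor of limb motor axons and limb mesenchyme, had 118 and 124 CPM in WT and 107 and 108 CPM in *prdm1a-/-* libraries (log2 fold change -0.17, SE 0.13, adjusted p = 0.662 from edgeR). *ephb4a* and *ephb4b*, counterparts of the ephrin-B2 receptor of veins, had log2 fold changes of 0.10 (SE 0.131) and -0.17 (SE 0.139), with 92.9 and 138 CPM in WT and 102 and 145 CPM in *prdm1a-/-* libraries for *ephb4a*. *epha2a*, a receptor best known from epithelia, had 57.6 and 359 CPM in WT and 71.4 and 433 CPM in *prdm1a-/-* libraries. Its libraries separated by replicate number and overlapped by genotype (log2 fold change 0.29, SE 0.133, adjusted p = 0.411 from edgeR), although *prdm1a-/-* was above WT within each pair. Below 3 CPM in every library, *epha6*, *ephb2a* and *ephb6* had SEs of 0.617, 0.649 and 0.736, so that a difference as large as that of *ntn1b* was not detectable there.

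Of the slits and their receptors, 0 of 4 slits and 0 of 5 robos were called by edgeR, DESeq2 or limma-voom, with 0 slits and 1 robo at an unadjusted p under 0.05 in edgeR. *slit3* was the guidance gene with the highest mean CPM, at 372 and 429 CPM in WT and 435 and 509 CPM in *prdm1a-/-* libraries (log2 fold change 0.23, SE 0.134, adjusted p = 0.528 from edgeR). Both *prdm1a-/-* libraries of *slit3* lay above both WT libraries, by a narrow gap. *slit1a* had 190.4 and 165 CPM in WT and 173 and 162 CPM in *prdm1a-/-* libraries (log2 fold change -0.086, SE 0.132, adjusted p = 0.86 from edgeR). *slit1b*, chosen after its values were seen, had opposite signs in the pairs (0.27 and -1.04). Summed over the slits, replicates 1 gave a log2 ratio of 0.14 and replicates 2 one of 0.14. *slit3* weighs most in these sums, and the median log2 ratios of the slits were 0.25 and 0.034. Among the receptors, *robo3*, whose mouse counterpart acts in commissural axons, had 174 and 196 CPM in WT and 167 and 214 CPM in *prdm1a-/-* libraries (log2 fold change 0.034, SE 0.134, adjusted p = 0.953 from edgeR), and *robo1* had 151 and 175 CPM in WT and 145 and 176 CPM in *prdm1a-/-* libraries (log2 fold change -0.026, SE 0.131, adjusted p = 0.968 from edgeR). *robo2* had 20.2 and 27.1 CPM in WT and 27.5 and 34.6 CPM in *prdm1a-/-* libraries (log2 fold change 0.40, SE 0.168, adjusted p = 0.365 from edgeR). It was the robo whose genotypes did not overlap, with both *prdm1a-/-* libraries above WT, while its second identifier, at lower CPM, had a log2 fold change of -0.12.

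The third gene that fell, *ntn1b*, encodes a secreted netrin 1 and stood at 27.3 and 20.5 CPM in the first and second WT library and 13.3 and 7.94 CPM in the first and second *prdm1a-/-* library. Both *prdm1a-/-* libraries were below both WT libraries, with means of 23.9 ± 4.85 CPM in WT and 10.6 ± 3.81 CPM in *prdm1a-/-* (SD, n = 2). On the log2 scale the change was -1.20 (SE 0.204, edgeR adjusted p = 0.0233), 2.29-fold higher in WT, with -1.03 in replicates 1 and -1.36 in replicates 2. All 6 fits with the block called it, with adjusted p from 0.000966 to 0.0498. The other netrin 1 gene, *ntn1a*, had 33 and 35.2 CPM in WT and 27.5 and 43.5 CPM in *prdm1a-/-* libraries (log2 fold change 0.023, SE 0.18, adjusted p = 0.979 from edgeR). Its pairs had opposite signs, -0.26 and 0.30, and whether the paralogs differ was not tested. *ntn5* had 31 and 45.7 CPM in WT and 37.2 and 44.3 CPM in *prdm1a-/-* libraries (log2 fold change 0.11, SE 0.159, adjusted p = 0.853 from edgeR), and *ntn2*, chosen after its values were seen, had 12.7 and 18.5 CPM in WT and 11 and 11.2 CPM in *prdm1a-/-* libraries (log2 fold change -0.46, SE 0.229, adjusted p = 0.452 from edgeR).

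Of the 5 Unc5 receptors, 0 were called by edgeR, with 0 at an unadjusted p under 0.05, and 0 by DESeq2 or limma-voom. *unc5b*, known from vessels, had 41.8 and 26 CPM in WT and 44.1 and 26.4 CPM in *prdm1a-/-* libraries (log2 fold change 0.051, SE 0.156, adjusted p = 0.939 from edgeR). *unc5c* had 26 and 47 CPM in WT and 35.5 and 45.3 CPM in *prdm1a-/-* libraries (log2 fold change 0.19, SE 0.172, adjusted p = 0.715 from edgeR). The other 3, *unc5a*, *unc5da* and *unc5db*, were below 4 CPM in every library, with SEs of 1.13, 0.855 and 0.53. *unc50* had a log2 fold change of -0.18 (SE 0.219).

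Co-receptors, other ligands and cytoplasmic partners of these systems were followed in a list of 60 symbols, of which 56 were in the table and 58 identifiers were tested. EdgeR with the block called 0 of them and DESeq2 0. At an unadjusted p under 0.05 in edgeR, 13 of the 58 had lower and 3 of the 58 higher values, where the shares of all genes were 6.05% and 6.40%. Limma-voom with the block called 3 of the 58, all lower, against 2.17% of all genes. These were *rgmb*, a neogenin ligand, *flrt3*, a membrane protein that binds Unc5 receptors, and *chl1b*, an L1 family adhesion protein. *rgmb* had 90.6 and 123 CPM in WT and 60.8 and 80.5 CPM in *prdm1a-/-* libraries (log2 fold change -0.59, SE 0.133, adjusted p = 0.0767 from edgeR, 0.0315 from limma-voom). The log2 fold changes were -0.61 for *flrt3* and -0.58 for *chl1b*, with limma-voom adjusted p of 0.0359 and 0.0443. Among the 3 partners with higher values was *mical3b*, chosen after its values were seen. Its log2 fold change was 0.75 (SE 0.187, adjusted p = 0.111 from edgeR, 0.0917 from limma-voom). The pairs gave 0.92 and 0.59, and the genotypes overlapped. Of the 58 partners tested, 30 were lower in both pairs and 10 were higher in both, where the share of all genes was 29.7% for each. The median log2 fold change of the partners was -0.17. The netrin receptors *dcc* and *neo1a* had log2 fold changes of -0.43 (SE 0.278) and -0.38 (SE 0.133). Of the 10 neuron markers, 5 were lower in both pairs and 0 were higher in both, and their part in these values was not tested.

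**Figure D3:**
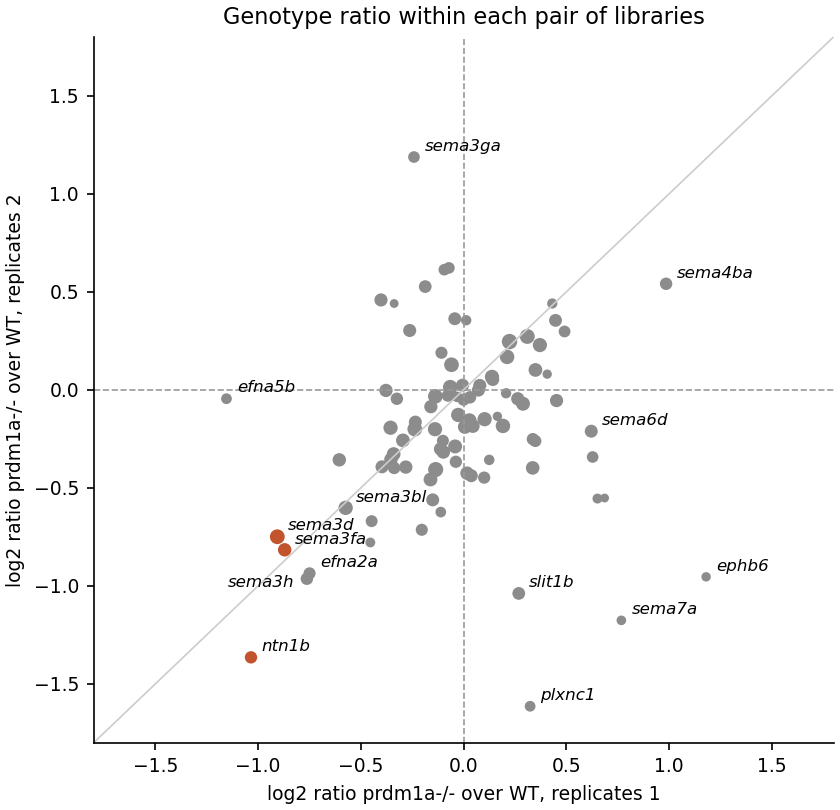
Log2 ratio of *prdm1a-/-* over WT in replicates 1 (x axis) and in replicates 2 (y axis) for each tested guidance gene except *sema4gb* and *sema4aa*, with larger points at higher mean CPM and the diagonal marking equal ratios. The called genes (orange) lie near the diagonal at the lower left, while *plxnc1*, *sema7a*, *ephb6* and *slit1b* are above 0 in replicates 1 and below 0 in replicates 2.

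For most guidance genes the replicate numbers differed by more than the genotypes. In the fit with the block, the difference of replicates 2 over replicates 1 was larger than that between genotypes in 68 of 93 genes (73.1%, against 67.3% of all genes). The median size was 0.399 for the replicate number and 0.195 for the genotype, on the log2 scale, against 0.475 and 0.254 over all genes. The replicate difference was above 1 for 6 of 93 guidance genes, a smaller share than the 2866 of all 20007 genes. The 6 were the receptor *epha2a* (2.62), its ephrin A ligands *efna1b* (1.69) and *efna1a* (1.59), *sema6dl* (1.31) and the low-count *sema4gb* and *unc5a*. It was below -1 for 9 of 93 guidance genes, close to the share of all genes (2003 of 20007). These 9 had higher values in replicates 1, and 6 are semaphorins, *sema4aa* (-2.68), *sema4e* (-1.75), *sema5ba* (-1.64), *sema7a* (-1.58), *sema3ga* (-1.40) and *sema3gb* (-1.13). The other 3 are *slit1b* (-1.38), *ephb2a* and *unc5db*. These genes were named for this difference after their values were seen. Among the called genes it was 0.48 for *sema3d*, -0.31 for *sema3fa* and -0.58 for *ntn1b*, smaller than their genotype differences. Cartilage and muscle marker sums were also far higher in replicates 1 of both genotypes, and their part in the replicate differences was not tested.

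**Figure D4:**
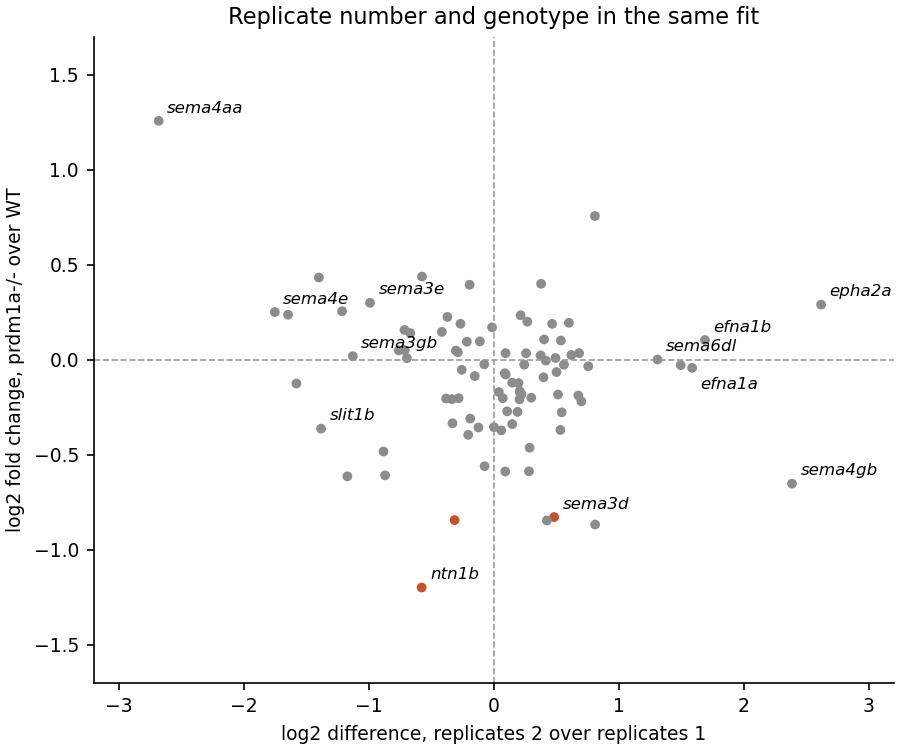
Log2 difference of replicates 2 over replicates 1 (x axis) and log2 fold change of *prdm1a-/-* over WT (y axis), both from edgeR with the block, for each of the 93 tested guidance genes (called genes in orange). The points spread further along the replicate axis, from -2.68 for *sema4aa* to 2.62 for *epha2a*, than along the genotype axis, from -1.20 for *ntn1b* to 1.26 for *sema4aa*, whose counts are too few for a usable ratio.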

How the data were processed

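The authors deposited whole-number counts per gene for 4 libraries. Per the submitters' processing notes and the study's methods, the read pairs were trimmed, then mapped with STAR (2.7.10b) to danRer11 and counted by featureCounts. Its gene models and strand options were not given in the sources used here. Antisense or overlapping genes may thus share counts. The deposited table also holds log2 values per library and the authors' DESeq2 fold changes and p-values, which were not used. The 6 CUT&RUN samples were not analysed here.

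Counts were fitted on the whole table with edgeR 4.0.16 (R 4.3.3), TMM, filterByExpr (minimum count 10, minimum total 15), a quasi-likelihood test with genotype and the replicate number as a block, two-sided, with Benjamini-Hochberg adjustment over 20007 genes. The selection of these genes asked for genotypes to be compared within replicate number. Same-numbered libraries deviated together (r = 0.66, and 0.59 over guidance genes), and the common dispersion was 0.0446 with and 0.255 without the block, with 1 residual degree of freedom against 2. Libraries are pools of embryos, so the spread is one between pools. EdgeR's test gives no SE, so the SEs printed for it are the size of the log2 fold change over the square root of the test's F value. Ratios within a pair used a prior count of 0.5. Alternatives were no block, DESeq2 1.42.0, limma-voom (limma 3.58.1), RLE size factors, other filters and leaving out libraries. In simulated counts, 200 well-counted genes were changed by a log2 of 2 in either direction, more than any called guidance gene. Replicate differences like those observed were built into both genotypes. EdgeR with the block recovered 99.5% of the changed genes among 19646 genes, with 8 false calls, and without the block it recovered 0. That contrast followed from how the counts were simulated, so it measures neither power for smaller changes nor whether the block is right. The share of real differences among guidance genes that these fits can find was not tested. Whether the block is right for these libraries was not tested either.

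Genes named are those called, those at an unadjusted p under 0.05 (up to 12 in each direction), the 2 with the highest CPM of each class, and non-overlapping genes that an alternative called. Other names were chosen after their values were seen. The gene group and all lists were chosen with earlier results of these data known. No gene lengths were used, so levels are not compared between genes, and orders of CPM follow counts alone. Gene order came from NCBI RefSeq's GRCz12tu table, which is not the build of the counts, and 93 of the 94 identifiers were found in a table of gene names.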

Additional observations from a re-analysis of the deposited data

How the results depend on the processing

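Against 3 guidance genes called by edgeR with the replicate block, no block gave 0, limma-voom 5, no filter on low counts 6, RLE size factors 2, a minimum of 10 counts in every library 4, and DESeq2 3. Over all genes, the calls were 203 of 20007 with the block, 0 of 20007 without it, 434 of 20007 with limma-voom, 636 of 26140 with no filter, 128 of 20007 with RLE, 300 of 17404 with the minimum of 10 counts and 246 of 26140 with DESeq2. *ntn1b* and *sema3d* were called in every fit with the block, and *sema3fa* in all but that with RLE. Leaving out WT replicate 1, WT replicate 2, *prdm1a-/-* replicate 1 or *prdm1a-/-* replicate 2 gave 0 to 0 guidance genes called, 0 of all genes called, and 1 to 2 at an unadjusted p under 0.05. These fits had genotype as their only term, because 3 libraries with the block leave no residual degree of freedom, and the lone library was assumed to vary like the other genotype. At an unadjusted p under 0.05, the 15 genes became 3 without the block and 8 with DESeq2. Partner genes called went from 0 to 3 with limma-voom, 7 with no filter (5 lower, 2 higher) and 2 with the minimum of 10 counts. Of the 38 named genes, *sema6dl* alone changed sign across the 6 other fits, from 0.0014 to -0.076 without the block, -0.017 with limma-voom and -0.0017 with the minimum of 10 counts. With the replicate pair numbered 1 or 2 left out, the log2 ratio of the other pair, a value with no test, kept its sign for 28 of the 38, the 3 called genes among them, and changed it for 10. The cause of these changes was not tested. Among all genes, 59.6% had the same sign in both pairs. Many of the 38, and the 3 called genes, were picked by the fit with the block, which favours genes whose pairs agree. The kept signs are therefore no separate check of the calls. The replicate block sets all calls, and 2 pairs of libraries cannot show whether the numbers mark shared batches. *sema4gb*, whose few counts differed widely between its *prdm1a-/-* libraries, had a log2 SE of 1.29. The part of depth in that SE was not tested.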
